A study of Rattus norvegicus with 12 samples.

Results

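Phenylephrine (PE) against vehicle without JQ1 was examined in cultured neonatal rat cardiomyocytes, the contractile cells of the heart. The comparison rests on 4 of the 12 libraries of the series: the 2 libraries titled for PE with DMSO and the 2 titled for acetic acid with DMSO, chosen by these titles and set against each other gene by gene over all expressed genes. All cells came from Sprague-Dawley rats aged 1 to 3 days and were plated at 40000 cells per cm2 in 7% serum with 10 µM cytosine arabinoside (AraC), a drug against dividing cells, before serum and later AraC were withdrawn. The PE group then received 10 µM PE for 24 h and the vehicle group received acetic acid for 24 h, and both received DMSO, the vehicle of JQ1. Of the other 8 libraries, those with endothelin-1 (ET-1, 100 nM), with JQ1 (1 µM, an inhibitor of the BET bromodomain proteins) or with both entered the fit as further groups of 2. The study's title asks about the transcription elongation factor P-TEFb in cardiomyocyte hypertrophy driven by different receptors. These cultures are a model of newborn cells on a dish, and the labels do not say whether replicates came from separate litters or cultures, so the p-values describe how far these particular libraries spread, and that spread may be technical.

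PE is an agonist of alpha-1 adrenergic receptors. In cardiomyocytes these receptors couple through Gq to phospholipase C, which releases inositol trisphosphate and diacylglycerol and so raises calcium and activates protein kinase C. The ERK kinases, calcineurin and protein kinase D act further down, and the cells enlarge, add sarcomeres and return to part of the fetal gene programme, a response known as hypertrophy.

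Gene values are FPKM (fragments per kilobase of transcript, scaled to library size) summed over the transcripts of a gene and rescaled between libraries, and they compare levels per length. Each gene's values are given with replicate 1 first, and a difference is PE minus vehicle on the scale log2(rescaled FPKM + 0.5), with its standard error (SE). A gene is said to have risen or fallen when limma's adjusted p was under 0.05. The same fit with the replicate number as a further term is called the block, and its result is given where it changes a call.

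Among 13793 tested genes, 398 rose (2.89%) and 439 fell (3.18%) with PE. A change of at least 2-fold was seen in 105 of the genes that rose and in 122 of those that fell. The median log2 difference was 0.69 among the former and −0.67 among the latter, against −0.01 over all tested genes, and every called gene differed by at least 0.28. All 837 had the same sign in both replicates, and in all 837 the PE libraries lay outside the range of the vehicle libraries. Over all tested genes, both PE libraries lay above both vehicle libraries for 27.0% and below both for 26.9%. The calls were made from these same libraries, so neither count is support apart from the calls. With the block, 1627 genes rose (11.8%) and 1687 fell (12.2%), and these include all 837. These shares over all tested genes, without and with the block, are the background for the counts of each gene list below.

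The median distance between the 2 vehicle libraries of a gene was 0.17 and that between the 2 PE libraries 0.16 on the log2 scale, beside a median distance of 0.2 between the group means. The number of calls fell when any 1 of the 4 libraries was left out. Without PE replicate 1, 78 genes rose and 66 fell, and without PE replicate 2, 1 rose and 2 fell. Without vehicle replicate 1, 28 rose and 52 fell, and without vehicle replicate 2, 7 rose and 3 fell. With the block, leaving out the same libraries in that order gave 674 and 605, 390 and 318, 1259 and 1419, and 598 and 439. Of the genes called in the full fit, 214 of the 398 and 202 of the 439 kept their call in all 4 of these fits. On the FPKM scale as deposited the median of all genes was −0.13, and 188 genes rose while 344 fell, so that 35.3% of calls were rises in place of 47.6%.

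**Figure D1:**
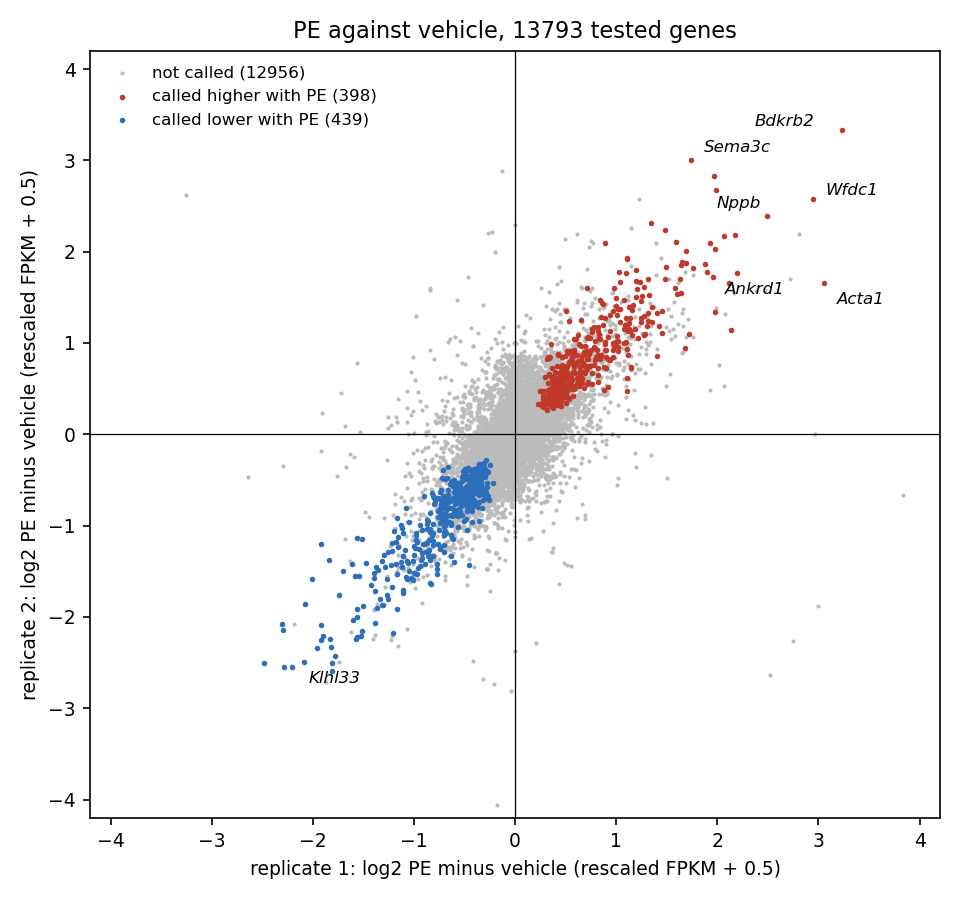
Log2 difference between PE and vehicle in replicate 1 (horizontal) and replicate 2 (vertical) for each tested gene, where each point is a gene, red points rose, blue points fell and grey points were not called; 11 genes lie outside the plotted range. All red points lie in the upper right and all blue points in the lower left, with Bdkrb2 farthest in both directions and Acta1 farther to the right than up.

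A level of at least 100 rescaled FPKM in the higher group was reached by 65 of the genes that rose and by 11 of those that fell, and the median vehicle level was 14.7 in the former, 11.4 in the latter and 10.1 over all tested genes. Among the called genes, 51 that rose and 49 that fell carry placeholder symbols and are not named. The tables do not tell whether reads were assigned by strand, so genes that overlap another, such as Idi1 with Wdr37, Ilk with Rrp8 and Taf10, Eaf1 with Mettl6, Lama4 with Fam229b and Spry2 with Mycbp2, are uncertain.

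The cultures held cardiomyocytes with some other cells. The 9 measured cardiomyocyte markers summed to 14410 and 19800 rescaled FPKM in vehicle and to 18180 and 24430 in PE, with the thin filament protein gene Tnnt2 highest. Fibroblast markers (11 of 12 at 1 FPKM or more in some library) summed to 1355 and 332 in vehicle and to 975.3 and 222.5 in PE, so that replicate 1 held more of this signal than replicate 2 in both groups and PE was lower within each replicate. Endothelial, macrophage, epicardial and erythroid markers summed to no more than 24.75 in any of the 4 libraries, and Cdh5, Vwf, Ptprc and Wt1 stayed under 1. Schwann cell and neuron markers, which were mostly Uchl1, summed to 30.78 and 22.22 in vehicle and 38.82 and 31.49 in PE. Smooth muscle and pericyte markers summed to 1396 and 1324 in vehicle and 1878 and 2082 in PE, mostly from desmin (Des), which cardiomyocytes also express. Of the 9 tested, 2 rose, among them Cnn1, and 0 fell (3 and 1 with the block). No other marker list held a called gene without the block. With the block, 4 of 11 tested fibroblast markers, 1 of 6 macrophage markers and 1 of 5 epicardial markers fell. Of 9 cardiomyocyte markers 2 rose with it, beside 11.8% of all tested genes that rose and 12.2% that fell. In such bulk libraries fewer cells of a type and less RNA per cell cannot be told apart.

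The 2 detected alpha-1 receptor genes differed in direction. Adra1b, which encodes the alpha-1B adrenergic receptor, measured 10.7 and 13.1 in vehicle and 5.53 and 4.61 with PE (log2 difference −1.15 ± 0.20, adjusted p = 0.021). Adra1a, the alpha-1A receptor, went the other way, from 4.4 and 6.41 to 6.84 and 12, and passed only with the block (log2 difference 0.72 ± 0.34, adjusted p = 0.26, and 0.019 with the block). The beta-1 receptor gene Adrb1 was lower, at 8.6 and 11.3 in vehicle and 5.74 and 6.16 with PE (log2 difference −0.69 ± 0.17, adjusted p = 0.056, and 0.021 with the block).

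Of the 17 tested genes of Gq and phospholipase C signalling, 1 rose and 2 fell, and with the block 2 rose and 4 fell. Both genes that fell, Dgkz and Dgkd, encode diacylglycerol kinases, which remove the lipid messenger by phosphorylating it. Dgkz fell from 23.1 and 26.3 to 16.2 and 15.6 (log2 difference −0.62 ± 0.10). Dgkd fell from 26.1 and 25.8 to 20.4 and 19.9 (log2 difference −0.35 ± 0.07). The Gq alpha subunit gene Gnaq differed by 0.03 and its relative Gna11 by −0.04, neither of them called.

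Among 14 genes of protein kinases C and D and the calcium/calmodulin kinases, Camk2a alone was called and fell from 6.46 and 8.29 to 3.78 and 3.59 (log2 difference −0.90 ± 0.18, adjusted p = 0.029). The protein kinase C genes Prkca, Prkce and Prkcd differed by 0.48, −0.32 and 0.00, and of these Prkca passed with the block. In that list 2 rose and 2 fell with the block. None of the 16 RGS proteins, receptor kinases and arrestins was called, and 1 rose and 2 fell with the block. Rgs2, a brake on Gq, was higher with the block (vehicle 19 and 21.4, PE 35.3 and 37.9, log2 difference 0.85 ± 0.21, adjusted p = 0.055, and 0.015 with the block).

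Feedback genes of the ERK pathway mostly had higher means. These are phosphatases, Sprouty proteins and ETS factors that active ERK induces and that mostly limit it in turn. Of 18 tested, 2 rose and 0 fell, with a median of 0.64; with the block 10 rose and 1 fell. Etv4, an ETS factor, rose from 3.63 and 2.29 to 9.77 and 8.53 (log2 difference 1.51 ± 0.35, adjusted p = 0.047). Spry2, a Sprouty protein, rose from 16.6 and 16.9 to 28.1 and 35.7 (log2 difference 0.90 ± 0.13, adjusted p = 0.013). Dusp4, a nuclear phosphatase of ERK, had the largest difference of the list at 7.21 and 4.03 in vehicle and 19.8 and 18.8 with PE (log2 difference 1.75 ± 0.43, adjusted p = 0.053, and 0.0016 with the block). Dusp8 (vehicle 2.26 and 5.06, PE 8.18 and 12.2) and Dusp6 (vehicle 8.56 and 4.29, PE 14.7 and 10.2) were higher with the block as well. Etv1, another ETS factor, was lower (vehicle 12.9 and 13.1, PE 7.02 and 8.52, log2 difference −0.72 ± 0.19, adjusted p = 0.065, and 0.027 with the block).

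Immediate early genes, the first to answer most stimuli, mostly had higher means after 24 h. 5 of 21 rose and none fell, 13 with the block, and the median was 0.52. Mafk, a small Maf factor that pairs with other leucine zipper proteins on DNA, rose from 33.7 and 42.1 to 85 and 122 (log2 difference 1.42 ± 0.29, adjusted p = 0.032). Its relative Maff rose from 5.36 and 3.49 to 9.1 and 11.6 (log2 difference 1.15 ± 0.21). Fos, a part of the AP-1 factor, rose from 2.71 and 3.96 to 8.09 and 9.63 (log2 difference 1.30 ± 0.24, adjusted p = 0.026). Ier3 and Btg2 also rose, by 1.14 and 0.91, while Egr1 differed by 0.11 and was not called.

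Among 13 targets of cyclic AMP signalling through CREB, Sik1 and Bdnf rose and none fell, and 5 rose with the block. Sik1, a salt-inducible kinase that acts on CREB coactivators and class II deacetylases, measured 5.02 and 7.28 in vehicle and 16.8 and 28.3 with PE (log2 difference 1.77 ± 0.30, adjusted p = 0.018). Bdnf, a neurotrophin, rose from 1.14 and 1.03 to 2.19 and 2.7 (log2 difference 0.89 ± 0.21). Neither the calcineurin and NFAT list (12 genes) nor the MEF2 and class II deacetylase list (12 genes) held a called gene, with medians of 0.06 and 0.02. With the block, 3 rose in the former and 3 in the latter, and none fell. Both medians were below 0 on the deposited FPKM scale. Rcan1, a calcineurin target, measured 88.7 and 147 in vehicle and 131 and 216 with PE (log2 difference 0.55 ± 0.64, adjusted p = 0.67).

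Of 21 genes of hypertrophy and the fetal programme, 4 rose: Nppb, Acta1, Ankrd1 and Timp1. Nppb, which encodes brain natriuretic peptide, measured 409.8 and 811 in vehicle and 2300.3 and 4253 with PE (log2 difference 2.44 ± 0.56, adjusted p = 0.044), a 5.37-fold ratio of the means. Acta1, skeletal muscle alpha-actin, lies on rn6 at chromosome 19, 56674074 to 56677084, and rose from 201 and 547 to 1683 and 1725 (log2 difference 2.36 ± 0.51, adjusted p = 0.036). The vehicle libraries of Acta1 were far apart while the PE libraries nearly coincided. Ankrd1, a stretch-sensitive partner of titin, rose from 1128 and 1863 to 4375 and 6142 (log2 difference 1.84 ± 0.39, adjusted p = 0.034). Timp1, an inhibitor of matrix proteases, rose from 14.2 and 9.85 to 35.2 and 31.2 (log2 difference 1.45 ± 0.27).

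Other members of the hypertrophy and fetal list were higher and passed only with the block. Nppa, atrial natriuretic peptide, measured 2622 and 4719.7 in vehicle and 6607 and 12826 with PE (log2 difference 1.39 ± 0.53, adjusted p = 0.16, and 0.001 with the block). Actc1, cardiac alpha-actin, measured 2245 and 4336 in vehicle and 6525 and 8919 with PE (log2 difference 1.29 ± 0.42, adjusted p = 0.12, and 0.0038 with the block). Fhl1, a LIM protein of the sarcomere, measured 156 and 409.7 in vehicle and 1096 and 1879 with PE (log2 difference 2.50 ± 0.76, adjusted p = 0.095, and 0.00053 with the block). Xirp2, an actin-binding protein of the cell ends, measured 6.23 and 18.8 in vehicle and 34.7 and 56.9 with PE (log2 difference 1.98 ± 0.86, adjusted p = 0.22, and 0.0051 with the block). In each of the 4 genes both PE libraries exceeded both vehicle libraries, which was also so for 27.0% of all tested genes.

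The switch of myosin heavy chains that marks hypertrophy in rodents was not detected at 24 h. Myh7, the fetal beta chain, measured 1409 and 1895 in vehicle and 1924 and 2321 with PE (log2 difference 0.37 ± 0.35, adjusted p = 0.59). Myh6, the adult alpha chain, measured 535 and 803 in vehicle and 638 and 836 with PE (log2 difference 0.16 ± 0.43, adjusted p = 0.87). The groups of Myh6 overlapped. Over the whole hypertrophy and fetal list, 1 gene fell, and 12 rose with the block, with a median of 0.58. The gene that fell was Hopx, a homeodomain protein that acts without binding DNA (vehicle 32.4 and 33.1, PE 15.9 and 12.9, log2 difference −1.16 ± 0.26).

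**Figure D2:**
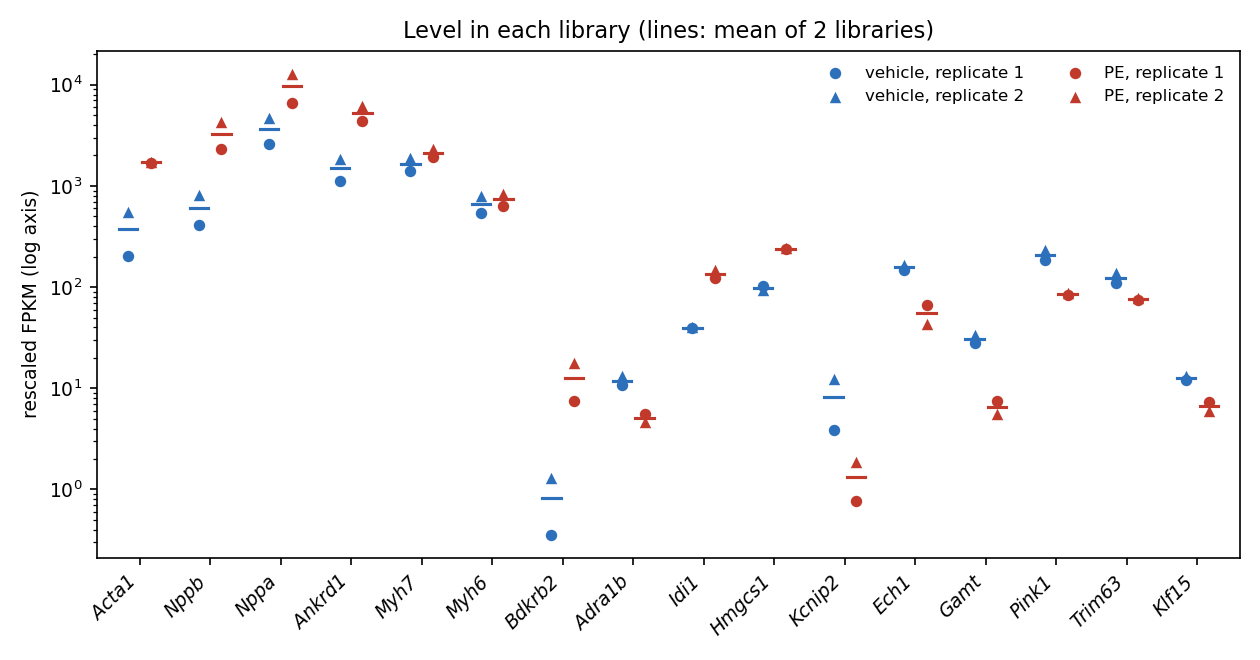
Level in each of the 4 libraries, as rescaled FPKM on a log axis, for 16 genes described here, with vehicle in blue, PE in red, circles for replicate 1, triangles for replicate 2 and lines at the mean of 2 libraries. The PE points of Acta1, Nppb, Ankrd1, Bdkrb2 and Idi1 lie above and those of Adra1b, Kcnip2, Ech1, Gamt and Pink1 below both vehicle points, while the Myh6 points overlap.

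Targets of serum response factor (SRF) and YAP, which answer actin polymerisation and mechanical load, mostly had higher means. Of 30 tested, 4 rose and none fell, 18 rose with the block, and the median was 0.56. Tnfrsf12a, the receptor of the cytokine TWEAK, rose from 43.5 and 73.3 to 197 and 335 (log2 difference 2.18 ± 0.51, adjusted p = 0.047). Cnn1, a calponin that binds actin, rose from 29.6 and 47.3 to 112 and 164 (log2 difference 1.84 ± 0.41). Csrp1, a LIM protein of actin bundles, rose from 167 and 127 to 333 and 338 (log2 difference 1.20 ± 0.16). Vcl, vinculin of cell adhesions, rose by less, from 158 and 155 to 199 and 210.4 (log2 difference 0.39 ± 0.09). The matricellular gene Ctgf was higher with the block (vehicle 176 and 199.6, PE 331 and 474, log2 difference 1.08 ± 0.36, adjusted p = 0.12, and 0.016 with the block), while cytoplasmic beta-actin (Actb) differed by −0.04.

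A few upstream stretches show what letters lie before the starts of genes that rose. RefSeq promoters on GRCr8, a later build than the rn6 of the files, matched 8867 of the 13793 tested genes by symbol, and the 250 bases before the start were searched on both strands. The motifs were the CArG box, bound by SRF, the M-CAT element CATTCC, bound by the TEAD partners of YAP, and the cyclic AMP element (CRE) TGACGTCA, bound by CREB. The stretches that follow were chosen because they hold such a motif in a gene that rose. The same letters also lie before genes that fell, such as an M-CAT element before Trim63 and a CArG box before Igf2. The stretches are written 5′ to 3′ on the gene's own strand with the motif in capitals. GGAATG is CATTCC read on the other strand, and no 2 motifs shown overlap. Acta1 (chr19:68784245-68784304, minus strand, 110 to 51 bases before the start) holds a CArG box and then an M-CAT element. Nppb (chr5:163699858-163699917, plus strand, 150 to 91 before) and Thbs1 (chr3:125510180-125510239, plus strand, 70 to 11 before) hold an M-CAT element. Epha2 (chr5:158888539-158888598, plus strand, 90 to 31 before) holds an M-CAT element and a CRE, and Maff (chr7:112792697-112792756, plus strand, 90 to 31 before) a CRE. Sema3c (chr4:18699628-18699687, minus strand, 60 to 1 before) holds a CArG box.
Acta1: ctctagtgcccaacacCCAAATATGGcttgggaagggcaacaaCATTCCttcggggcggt
Nppb: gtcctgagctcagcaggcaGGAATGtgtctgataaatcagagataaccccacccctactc
Thbs1: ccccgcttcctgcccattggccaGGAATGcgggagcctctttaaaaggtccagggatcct
Epha2: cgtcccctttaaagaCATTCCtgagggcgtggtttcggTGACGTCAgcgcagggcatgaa
Maff: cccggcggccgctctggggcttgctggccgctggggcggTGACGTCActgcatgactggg
Sema3c: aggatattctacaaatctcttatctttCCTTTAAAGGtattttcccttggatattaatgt

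The M-CAT letters were found before 43 of 279 genes that rose (15.41%), 25 of 302 that fell (8.28%), 869 of 8867 tested genes (9.8%) and 4037 of 33469 promoters in the table (12.06%). The CRE letters were found before 5.38% of genes that rose, 1.99% of those that fell, 3.06% of tested genes and 1.59% of all promoters. A CArG box was found before 1.08%, 0.99%, 1.24% and 1.5% in the same order, so its share among the genes that rose was close to that of all tested genes. In that order again, AP-1 letters were found before 6.45%, 3.64%, 4.2% and 6.34%. E-box letters were found before 10.04%, 10.26%, 8.3% and 5.59%, and sterol element letters before 1.43%, 1.32%, 1.33% and 1.63%. Of the SRF and YAP targets with a promoter, 8 of 22 held M-CAT letters and 5 of 22 a CArG box. These shares are descriptions, and a match is not a bound site.

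In the sarcomere, thin filament and Z-disc genes mostly had higher means, and thick filament genes were spread about 0. Of 33 thin filament and Z-disc genes, 4 rose and 1 fell (19 and 1 with the block), with a median of 0.63. Besides Acta1, Pdlim3, a LIM protein of the Z-disc, rose from 80.7 and 112 to 192 and 273 (log2 difference 1.26 ± 0.25, adjusted p = 0.029). Its relative Pdlim5 rose from 149 and 178 to 315 and 357 (log2 difference 1.04 ± 0.14). Lmod3, which nucleates thin filaments, rose by 0.79. The pointed-end cap Tmod4 fell (vehicle 2.28 and 2.6, PE 0.664 and 0.387, log2 difference −1.53 ± 0.20). Csrp3, Tpm1 and Tnnc1 were higher with the block, by 1.52 ± 0.69, 0.82 ± 0.32 and 0.88 ± 0.39 on the log2 scale, whereas Tnnt2 and Tnni3, of the same troponin complex as Tnnc1, differed by 0.02 and 0.00.

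Of 22 thick filament and M-band genes none rose and 2 fell (2 rose and 3 fell with the block), with a median of 0.02, which was −0.11 on the deposited FPKM scale. Myom3, an M-band protein, fell from 4.92 and 3.21 to 0.602 and 0.341 (log2 difference −2.22 ± 0.29, adjusted p = 0.011). Trim63 (MuRF1), a ubiquitin ligase of muscle atrophy, fell from 109.6 and 138 to 74.5 and 77.7 (log2 difference −0.69 ± 0.14, adjusted p = 0.033). Outside this list, Synm, an intermediate filament protein, rose from 5.46 and 5.65 to 19.7 and 21.2 (log2 difference 1.79 ± 0.19, adjusted p = 0.0077). Actins and other near-identical copies share reads, so the split of the signal among Acta1, Actc1 and their relatives is uncertain.

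At the cell junctions, Vcl and the nuclear lamina gene Lmna (vehicle 141 and 118, PE 181 and 195, log2 difference 0.54 ± 0.11) rose among 17 genes and none fell. With the block 5 rose and 2 fell. The gap junction genes Gja5 and Gja1 had lower means and were not called without the block. Gja5, connexin 40, measured 31.7 and 41.9 in vehicle and 14 and 7.99 with PE (log2 difference −1.74 ± 0.49, adjusted p = 0.079, and 0.04 with the block). Gja1, connexin 43, measured 179 and 246 in vehicle and 116 and 104 with PE (log2 difference −0.93 ± 0.35, adjusted p = 0.16). In both genes the PE libraries lay under both vehicle libraries, which was also so for 26.9% of all tested genes.

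Ion channel genes mostly had lower means. Of 26 potassium, sodium and pacemaker channel genes, none rose and 2 fell (2 and 12 with the block), and the median was −0.54. Kcnip2, the subunit that the transient outward potassium current requires, fell from 3.88 and 12.3 to 0.776 and 1.88 (log2 difference −2.11 ± 0.49, adjusted p = 0.046). Abcc9, the regulatory subunit of the ATP-sensitive potassium channel, fell from 15.4 and 15.8 to 8.88 and 9.57 (log2 difference −0.73 ± 0.11, adjusted p = 0.014). Scn3b, an accessory subunit of sodium channels, was higher with the block (vehicle 1.24 and 3.65, PE 7.34 and 11.6, log2 difference 1.86 ± 0.46, adjusted p = 0.053, and 0.0012 with the block).

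Calcium handling genes were spread about 0. Of 26 genes 2 rose and none fell, and 8 rose and 1 fell with the block. Slc8a1, the sodium-calcium exchanger, rose from 443 and 498 to 656 and 711 (log2 difference 0.54 ± 0.13, adjusted p = 0.048). Atp2a2, the calcium pump of the sarcoplasmic reticulum, measured 878 and 1296 in vehicle and 845 and 876 with PE (log2 difference −0.31 ± 0.23, adjusted p = 0.48). Its inhibitor Pln measured 811 and 1009.6 in vehicle and 577 and 623 with PE (log2 difference −0.59 ± 0.27, adjusted p = 0.23). Neither difference was detectable beyond the spread of these libraries.

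Genes of fatty acid oxidation and lipid storage, the main fuel pathway of the mature heart, mostly had lower means. None of 37 rose and 2 fell, 12 with the block, with a median of −0.36, and 32 of the 37 differences were below 0. Ech1, an enzyme for unsaturated fatty acids, fell from 149 and 166 to 66.1 and 43.6 (log2 difference −1.54 ± 0.32, adjusted p = 0.034). Plin5, which coats lipid droplets beside mitochondria, fell from 2.32 and 2.37 to 0.911 and 0.499 (log2 difference −1.26 ± 0.24). Hadh, an enzyme of the beta-oxidation cycle, was lower with the block (vehicle 76.4 and 75.3, PE 40.4 and 25.1, log2 difference −1.24 ± 0.40, adjusted p = 0.11, and 0.0065 with the block). So was Acaa2, of the same cycle, by −0.95 ± 0.36, whereas Acadm, an acyl-CoA dehydrogenase, differed by 0.29. Outside the list, Coq8a, needed for coenzyme Q synthesis, fell from 125 and 128 to 47.6 and 38.7 (log2 difference −1.55 ± 0.22, adjusted p = 0.012), and Hsdl2, a dehydrogenase-like protein of peroxisomes, fell by 1.09 on the log2 scale.

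Of 17 nuclear regulators of this pathway, none rose and 2 fell, and 1 rose and 4 fell with the block. Rxrg, a retinoid X receptor that pairs with PPARs, fell from 13.7 and 20.2 to 5.62 and 6.02 (log2 difference −1.44 ± 0.31, adjusted p = 0.036). Klf15, a factor of fasting metabolism, fell from 12.2 and 13.2 to 7.38 and 5.98 (log2 difference −0.88 ± 0.18, adjusted p = 0.032). Rxra was lower with the block (vehicle 22.2 and 23.8, PE 11.3 and 8.46, log2 difference −1.19 ± 0.31, adjusted p = 0.061, and 0.011 with the block). Ppargc1a, Ppara and Esrra differed by −0.42, −0.33 and 0.07 and were not called.

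Of 36 glucose metabolism genes 2 rose and 3 fell (7 and 6 with the block), beside 2.89% and 3.18% of all tested genes (11.8% and 12.2% with the block). Slc16a3, a transporter that exports lactate, rose from 14.3 and 20.6 to 44.3 and 60.9 (log2 difference 1.57 ± 0.23, adjusted p = 0.013), and Gyg1, the primer of glycogen, rose from 422 and 475 to 689 and 696 (log2 difference 0.63 ± 0.13). Pdk2, a kinase that switches off pyruvate dehydrogenase, fell from 27 and 34.6 to 13.2 and 11.8 (log2 difference −1.26 ± 0.20, adjusted p = 0.016), and the opposing phosphatase Pdp1 fell by 0.56. The glycogen phosphorylase gene Pygb, which overlaps Abhd12 on the other strand, fell from 87.6 and 108 to 58.1 and 59.5 (log2 difference −0.72 ± 0.14). Among phosphofructokinases, Pfkp was higher with the block (vehicle 112 and 141, PE 215 and 336, log2 difference 1.09 ± 0.30, adjusted p = 0.075, and 0.0013 with the block). The muscle form Pfkm was lower with it (vehicle 90.8 and 116, PE 61.9 and 48.7, log2 difference −0.90 ± 0.29, adjusted p = 0.11, and 0.037 with the block).

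The 2 enzymes of creatine synthesis went apart. Gamt, which makes the last step, fell from 27.9 and 34 to 7.57 and 5.59 (log2 difference −2.16 ± 0.26, adjusted p = 0.0096). Gatm, which makes the first, rose from 10.2 and 12.5 to 23.3 and 21 (log2 difference 0.94 ± 0.14, adjusted p = 0.014). The muscle creatine kinase Ckm measured 399.7 and 577 in vehicle and 254 and 229 with PE (log2 difference −0.99 ± 0.33, adjusted p = 0.13). The brain form Ckb measured 74.7 and 67.5 in vehicle and 144 and 86.7 with PE (log2 difference 0.65 ± 0.40, adjusted p = 0.38, and 0.049 with the block).

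Sterol synthesis genes shared a direction. All 24 of 24 tested genes had higher means with PE, 4 rose and 17 rose with the block, with a median of 0.81. Idi1, an isomerase of the isoprenoid branch, rose from 39.2 and 40.3 to 123 and 147 (log2 difference 1.75 ± 0.40, adjusted p = 0.044). Mvd and Hsd17b7 rose as well, by 0.72 and 0.97. Hmgcs1, at the start of the pathway, measured 102 and 92.9 in vehicle and 239.8 and 241 with PE (log2 difference 1.30 ± 0.49, adjusted p = 0.16, and 0.033 with the block). Of 15 genes of fatty acid synthesis only Elovl5, an elongase, rose (vehicle 29.4 and 25.1, PE 52.1 and 47.8, log2 difference 0.87 ± 0.12), and 4 rose with the block.

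Of 13 mitochondrially encoded genes none was called, and 10 were lower with the block, with a median of −0.56. Mt-atp6, an ATP synthase subunit, measured 278 and 352 in vehicle and 169 and 229 with PE (log2 difference −0.67 ± 0.27, adjusted p = 0.18, and 0.0022 with the block). Mt-nd6, the one such messenger of the light strand, differed by 0.03. Among 33 nuclear genes of the respiratory chain and citric acid cycle, the median was 0.07 and Cox7a1 alone was called (vehicle 2.74 and 1.31, PE 6.92 and 5.32, log2 difference 1.44 ± 0.34, adjusted p = 0.048). The share of all covered bases on the mitochondrial genome was 1.85% and 3.43% in vehicle and 1.24% and 1.74% in PE.

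**Figure D3:**
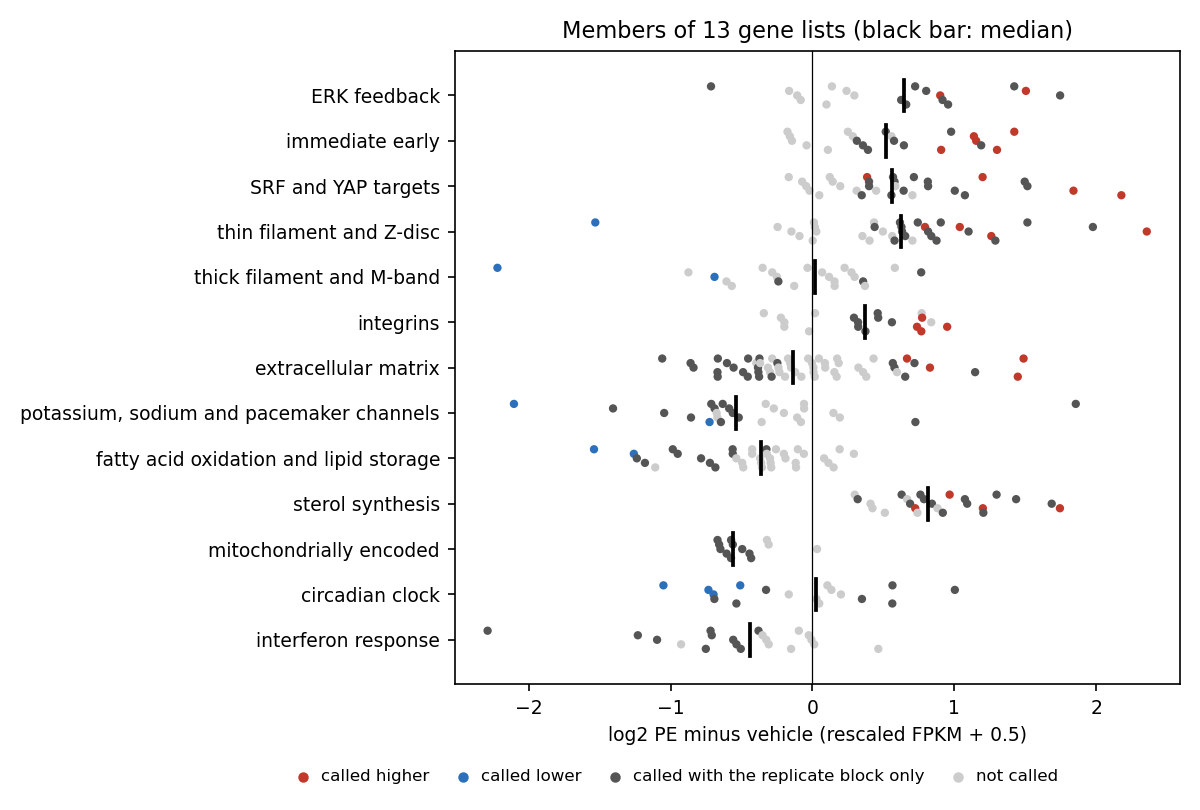
Log2 difference between PE and vehicle for each tested member of 13 gene lists, one point per gene, where red rose, blue fell, dark grey passed only with the replicate block and light grey was not called, and black bars mark medians. The bar lies at 0.81 for sterol synthesis and at 0.63 for thin filament and Z-disc genes, near 0 for thick filament genes, and at −0.36 for fatty acid oxidation.

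None of 39 cytosolic ribosomal protein genes was called although 37 had higher means, with a median of 0.22. Their median was −0.03 in replicate 1 and 0.46 in replicate 2, and their summed level was 14910 and 11850 in vehicle and 14600 and 16550 with PE, so the higher means rest on replicate 2. Of 38 ribosome biogenesis genes, 2 rose and none fell: Polr1c, a subunit of RNA polymerases I and III, rose by 0.67 and Wdr75 by 0.57. With the block 8 rose, beside 11.8% of all tested genes. Of 20 chaperones of the endoplasmic reticulum Dnajb11 alone was called, a rise from 85.8 and 81.4 to 119 and 121 (log2 difference 0.52 ± 0.08), and 3 rose and 1 fell with the block. Of 24 heat shock genes Hspa1l alone was called, a rise from 0.787 and 1.16 to 2.63 and 3.07 (log2 difference 1.19 ± 0.21), and it shares reads with close relatives. With the block 9 heat shock genes rose and none fell. Of 31 amino acid supply genes none was called, and 3 rose and 1 fell with the block. Slc7a1 was higher with the block (vehicle 5.85 and 7.82, PE 12.5 and 16.2, log2 difference 1.02 ± 0.48, adjusted p = 0.25, and 0.02 with the block).

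In the cell cycle list, 5 of 38 genes rose and 1 fell, and 5 rose and 3 fell with the block. Ect2, Anln and Prc1 serve the cleavage of the dividing cell. Ect2 rose from 14.7 and 16.4 to 33.2 and 27.8 (log2 difference 0.94 ± 0.20, adjusted p = 0.033), Anln by 0.86 and Prc1 by 0.60. Aurka and Ccnb1, which serve the entry into mitosis, rose by 0.46 and 0.42. The inhibitor Cdkn1b fell from 33.6 and 41 to 26.8 and 27.1 (log2 difference −0.45 ± 0.10). The proliferation markers Mki67 and Top2a differed by −0.34 and −0.03 and were not called, and the list's median of 0.10 was −0.02 on the deposited scale.

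The Bcl-2 family, which sets the threshold of mitochondrial cell death, held 3 rises and 2 falls among 16 genes, and 5 rose and 3 fell with the block. Bcl2l11 (Bim), which starts cell death, fell from 17.1 and 24.7 to 6.23 and 5.51 (log2 difference −1.73 ± 0.22, adjusted p = 0.011). Bmf, of the same BH3-only class, fell from 5.27 and 5.8 to 3.21 and 2.66 (log2 difference −0.82 ± 0.13). The protective gene Bcl2 rose from 8.68 and 10.2 to 17.5 and 20.8 (log2 difference 0.98 ± 0.13, adjusted p = 0.011) and its relative Bcl2l1 by 0.52. Bok, an effector of cell death, rose as well and by more, from 29.2 and 38.6 to 128 and 123 (log2 difference 1.89 ± 0.26, adjusted p = 0.011).

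The largest rise among the named genes was that of a receptor. Bdkrb2, the bradykinin B2 receptor, measured 0.359 and 1.3 in vehicle and 7.55 and 17.6 with PE (log2 difference 3.28 ± 0.49, adjusted p = 0.014). F2rl1, a receptor cut by proteases, rose from 0.206 and 0.884 to 2.73 and 4.19 (log2 difference 1.98 ± 0.39, adjusted p = 0.031). Lpar3, a receptor of lysophosphatidic acid, rose by 0.73. Gabrb2, a GABA receptor subunit, fell from 3.67 and 4.5 to 0.346 and 0.686 (log2 difference −2.19 ± 0.30, adjusted p = 0.011). The orphan receptor gene Gpr22 fell from 16.7 and 20.3 to 5.5 and 3.99 (log2 difference −1.87 ± 0.21), and it lies within Cog5 on the other strand. Ednra, the endothelin A receptor, differed by −0.32 and was not called.

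Of 40 secreted growth factors 1 rose and 3 fell (8 and 7 with the block). Over all tested genes 2.89% rose and 3.18% fell (11.8% and 12.2% with the block). The neurotrophin Ntf3 fell from 11.2 and 11.7 to 4.93 and 3.15 (log2 difference −1.42 ± 0.27, adjusted p = 0.028) where its relative Bdnf rose. Vegfb fell from 17.8 and 22 to 10.5 and 11.9 (log2 difference −0.80 ± 0.15), and Igf2 fell by 0.69. Hbegf, an EGF receptor ligand, was higher with the block (vehicle 7.57 and 11.9, PE 20.1 and 32.2, log2 difference 1.37 ± 0.42, adjusted p = 0.098, and 0.0012 with the block). So were Areg, another such ligand, by 1.75 ± 0.55 and the cardiac ligand Bmp10 by 1.32 ± 0.74. Adm, adrenomedullin, was lower with the block (vehicle 20.2 and 15, PE 8 and 4.36, log2 difference −1.48 ± 0.42, adjusted p = 0.076, and 0.0015 with the block). Inha, the inhibin alpha chain, rose from 2.52 and 3.38 to 8.61 and 16.2 (log2 difference 1.85 ± 0.35).

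Among guidance molecules Sema3c, a secreted semaphorin of outflow tract development, rose from 13.6 and 8.7 to 46.7 and 73.3 (log2 difference 2.37 ± 0.35, adjusted p = 0.013). The ephrin receptor Epha2 rose from 4.06 and 3.03 to 7.82 and 8.96 (log2 difference 1.15 ± 0.19). Ntn1, netrin 1, fell from 30.5 and 32.5 to 8.28 and 6.1 (log2 difference −2.07 ± 0.32, adjusted p = 0.015). Unc5b, one of its receptors, was higher with the block (vehicle 29.5 and 13.2, PE 40.2 and 48.2, log2 difference 1.13 ± 0.44, adjusted p = 0.17, and 0.043 with the block). Sema6d fell by 0.97 and Efnb1 fell by 0.44. In all, 2 of 25 rose and 3 fell, and 3 rose and 8 fell with the block.

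Of 56 matrix genes 4 rose and none fell, and 9 rose and 17 fell with the block. The laminin chain Lamc1 rose from 113 and 99.1 to 183 and 194 (log2 difference 0.83 ± 0.14, adjusted p = 0.018), and Lama4, whose reads are uncertain for its overlap with Fam229b, by 0.67. Thbs1, thrombospondin 1, rose from 50 and 29.5 to 92.9 and 127 (log2 difference 1.49 ± 0.35, adjusted p = 0.048). Basement membrane collagen Col4a2 was higher with the block (vehicle 194 and 137, PE 255 and 282, log2 difference 0.72 ± 0.19, adjusted p = 0.068, and 0.024 with the block). Col3a1, a collagen of fibroblasts, was lower with the block (vehicle 621 and 143, PE 402 and 95.7, log2 difference −0.60 ± 1.33, adjusted p = 0.84, and 0.006 with the block). Replicate 1 was above replicate 2 in both groups, by more than PE differed from vehicle. Col1a1 was lower by −0.49 and elastin (Eln) by −1.06, also with the block only. The sum of fibroblast markers, which includes both collagens, was also lower in PE within each replicate, and its part in these results was not tested.

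The integrins and their partners, which anchor cells to that matrix, held 4 rises and no fall among 19 genes, 11 rises with the block. Itga7, the laminin-binding chain of muscle, rose from 32.3 and 33.2 to 63.9 and 63.5 (log2 difference 0.95 ± 0.11, adjusted p = 0.0088). Itgb1, its beta partner, rose from 393 and 340.4 to 589 and 632 (log2 difference 0.74 ± 0.14, adjusted p = 0.026). Itga6 and the integrin-linked kinase Ilk rose too, by 0.77 and 0.77. These rises included both chains of a laminin receptor of muscle and 2 laminin chains.

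Of 17 clock genes 4 fell and none rose, and 7 fell and 4 rose with the block. Dbp and Tef are related factors driven by the core clock. Dbp fell from 12.5 and 12.9 to 8.16 and 6.79 (log2 difference −0.73 ± 0.13, adjusted p = 0.023), and Tef fell from 33.9 and 37.5 to 23.1 and 20.6 (log2 difference −0.70 ± 0.10, adjusted p = 0.012). Bhlhe41 fell by 0.51. Of the core genes, Arntl differed by 0.13 and Per2 by 0.56, the latter called with the block, and the list's median of 0.03 was −0.1 on the deposited scale. Each group was sampled at 24 h only, so phase cannot be read from these libraries.

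Of 25 cardiac transcription factors, 2 fell and none rose, and 1 rose and 5 fell with the block. Besides Hopx, Irx1, an Iroquois factor, fell from 3.03 and 4.46 to 1.3 and 1.22 (log2 difference −1.25 ± 0.29, adjusted p = 0.048). Irx4, the ventricular member, measured 50.1 and 51 in vehicle and 27.1 and 17.2 with PE (log2 difference −1.21 ± 0.59, adjusted p = 0.27). Gata4 was higher with the block (vehicle 23.4 and 35.1, PE 33.5 and 45.7, log2 difference 0.44 ± 0.27, adjusted p = 0.37, and 0.019 with the block) and Nkx2-5 differed by −0.20. Of 33 genes of P-TEFb and transcription elongation, 1 rose and 2 fell, with a median of −0.10. With the block 1 rose and 9 fell, beside 12.2% of all tested genes that fell with it, and 25 of the 33 differences were below 0. Eaf1 rose from 7.39 and 7.2 to 10.1 and 9.68 (log2 difference 0.42 ± 0.10) while its partner Ell fell from 4.99 and 5.25 to 3.7 and 3.72 (log2 difference −0.42 ± 0.08). Mllt3, of the super elongation complex, fell by 0.56. The P-TEFb kinase Cdk9 and its inhibitor Hexim1 differed by −0.20 and −0.39 and were not called.

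None of 20 interferon response genes was called, 10 were lower with the block, and the median was −0.44. Irf7, a factor that amplifies the response, measured 11.8 and 7.78 in vehicle and 2.87 and 0.767 with PE (log2 difference −2.29 ± 0.60, adjusted p = 0.062, and 0.0014 with the block). Among 26 antioxidant genes 2 fell and none rose, catalase (Cat) from 19.9 and 24.7 to 14.6 and 12.5 (log2 difference −0.69 ± 0.14) and the glutathione transferase Gsta4 from 64.4 and 67.6 to 46.1 and 37.7 (log2 difference −0.66 ± 0.12), and 1 rose and 4 fell with the block. The macrophage marker sum, 24.75 and 10.2 in vehicle and 16.9 and 6.276 in PE, was lower too, and its part in these results was not tested. Of 21 NF-kB targets, Nfkbiz alone was called, a rise (vehicle 2.19 and 1.68, PE 4.32 and 5.55, log2 difference 1.16 ± 0.16), and 5 rose and 1 fell with the block.

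Several of the largest changes belong to none of these groups. Wfdc1, a secreted protein with a protease inhibitor fold, had the smallest adjusted p of the named rises and measured 1.27 and 1.62 in vehicle and 13.1 and 12.1 with PE (log2 difference 2.76 ± 0.21, adjusted p = 0.0039). Prss23, a secreted serine protease, rose from 29.2 and 48.5 to 109 and 178 (log2 difference 1.87 ± 0.38, adjusted p = 0.032). Plppr5 rose from 2.9 and 2.45 to 12.9 and 11.5. Phf24 and Pxdc1 rose by 2.12 and 1.85. Kif5b, the motor that carries cargo along microtubules, rose from 131 and 159 to 326 and 375 (log2 difference 1.28 ± 0.19, adjusted p = 0.013). The tubulin gene Tubb4b rose from 179 and 197 to 339 and 413 (log2 difference 0.99 ± 0.18).

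Klhl33, a kelch protein, had the largest fall of the named genes, from 10.4 and 12.8 to 1.87 and 1.78 (log2 difference −2.37 ± 0.37, adjusted p = 0.014). Rab3b, a small GTPase of vesicle release, fell from 19.2 and 18.9 to 4.77 and 3.69 (log2 difference −2.06 ± 0.21, adjusted p = 0.007). Doc2g fell from 30.5 and 33.7 to 8.3 and 5.19 (log2 difference −2.20 ± 0.32). Asb14, Tmem44, the synaptic vesicle protein Synpr and the imprinted gene Nnat fell by 2.15, 1.82, 1.69 and 1.59. Rapsn, which clusters acetylcholine receptors, fell from 20.1 and 27.6 to 7.87 and 7.19 (log2 difference −1.59 ± 0.22), and the p38 activating kinase Map2k6 fell by 1.57. Among genes with a large fall in level, Pink1, a kinase of mitochondrial quality control, fell from 183 and 233 to 83.5 and 87.9 (log2 difference −1.26 ± 0.18, adjusted p = 0.012). The imprinted gene Mest fell from 66.7 and 64.3 to 25.1 and 22.1 (log2 difference −1.46 ± 0.21). Adssl1, a muscle enzyme of purine synthesis, the protein kinase A inhibitor Pkig and the histone variant gene H3f3a fell by 1.23, 0.58 and 0.42. In each of these genes both PE libraries lay under both vehicle libraries, as in all 439 genes that fell, so this is no support apart from the calls.

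The same contrast in cells that also received JQ1 rests on 4 other libraries. There 53 genes rose (0.384%) and 46 fell (0.334%), and with the block 851 rose (6.17%) and 813 fell (5.89%). Of the 398 genes that rose with PE alone, 374 also had higher means with PE in the presence of JQ1, and of the 439 that fell, 414 had lower means, while over all tested genes 48.6% were higher and 51.3% lower. The medians of those 398 and 439 genes with JQ1 were 0.36 and −0.36, beside 0.69 and −0.67 without JQ1. The genes were chosen by their values without JQ1, so the 2 sets of medians are not a fair measure of a change in size. Within them, 31 rises and 32 falls were called with JQ1, and 192 and 206 with the block.

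The test of the difference between the responses called none of 13793 genes, with 717 at an unadjusted p under 0.05 (5.2%), and called 10 with the block (0.0725%). Acta1 differed by 2.36 without JQ1 and by 2.55 with it (466 and 1026 with JQ1 alone and 3738 and 4404 with PE and JQ1), and Bok by 1.89 and 1.97. Nppb differed by 2.44 and 1.56, Ankrd1 by 1.84 and 1.67, and Bdkrb2 by 3.28 and 2.59, and in none of these was the difference between responses called. Wfdc1 differed by 2.76 without and 0.19 with JQ1 (0 and 0.0497 with JQ1 alone and 0.211 and 0 with PE and JQ1). The difference between its responses was −2.57 (limma's adjusted p = 0.16, and 0.035 with the block). With JQ1 all its values were below the constant added before the log, so its response there could not be measured. Among genes that fell, Doc2g differed by −2.20 and −0.38, Kcnip2 by −2.11 and −0.26, and Gpr22 by −1.87 and −1.71, again with no call for the difference.

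**Figure D4:**
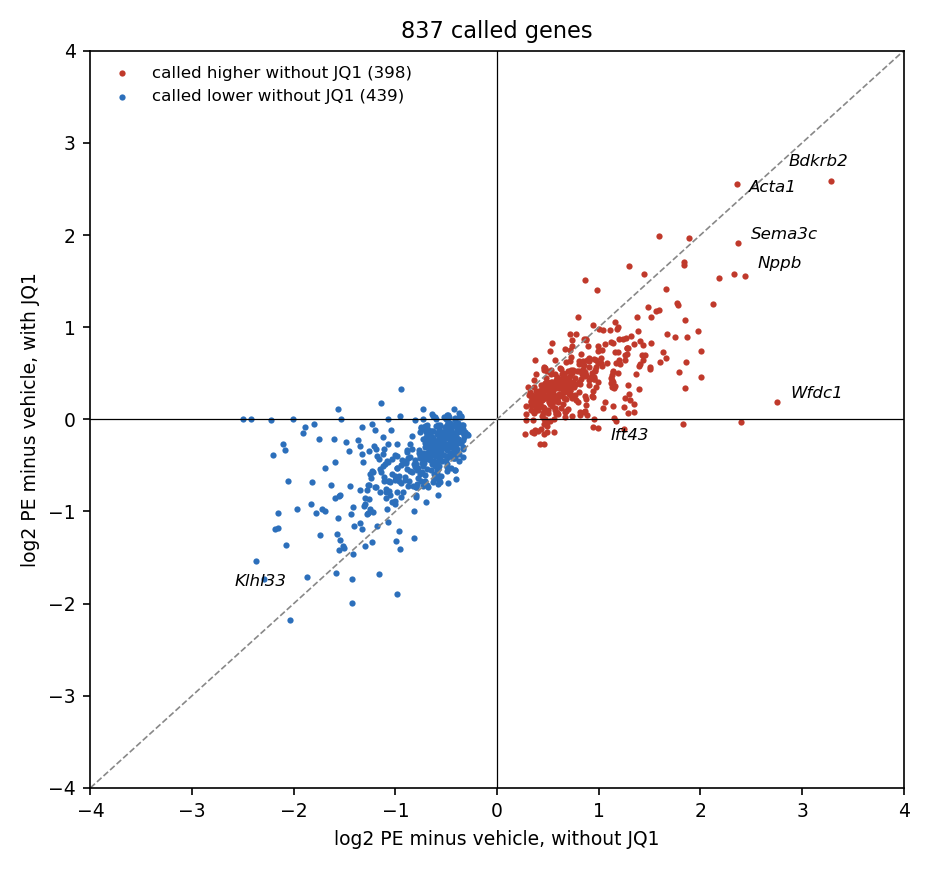
Log2 difference between PE and vehicle without JQ1 (horizontal) and with JQ1 (vertical) for the 837 genes called without JQ1, in red where they rose and blue where they fell, with a dashed line where both are equal. Most points keep their sign and lie nearer to 0 on the vertical axis, Acta1 lies just above the line, and Wfdc1 and Ift43 lie close to or under 0 with JQ1.

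PE and ET-1 are agonists of different Gq-coupled receptors. The direct test of PE against ET-1, without JQ1, called 1 of 13793 genes (0.00725%) with and without the block, and 206 (1.49%) had an unadjusted p under 0.05. That gene, AABR07034673.1, is a 321-base placeholder gene on chromosome 11 listed at 2.3 and 2.35 in vehicle, 2.5 and 2.33 with ET-1 and at 0 in both PE libraries, and it was named after its values were seen. Against the same vehicle libraries, Nppb differed by 2.44 with PE and 2.36 with ET-1, Acta1 by 2.36 and 1.90, Bdkrb2 by 3.28 and 2.52, and Adra1b by −1.15 and −1.37. For Klhl33 the values were −2.37 and −2.23, for Gamt −2.16 and −2.24, and for Idi1 1.75 and 1.39. The lack of calls does not show that the agonists act alike.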

How the data were processed

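Total RNA was sequenced from rat cardiomyocytes in 6 groups of 2 libraries, after removal of ribosomal RNA and with a stranded kit, per the labels' protocols. Per the submitters' processing notes, the build was rn6 and the tools were StringTie 1.3.4d, STAR 2.7.1a, DESeq2 1.24.0 and Trim Galore 0.6.0. No strand setting is given in the sources used here. The deposited tables give the mean coverage (signal) per base and the FPKM of 41078 transcripts of 32883 genes, both made by the authors and per the file headers normalized, in the case of FPKM, for transcript length and library total. Coverage times length gave 2.446 and 2.965 Gb (gigabases) in the vehicle and 2.518 and 2.759 Gb in the PE libraries, and 2.341 to 2.965 Gb over all 12. Read counts were not used, so no counting interval is given.

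Transcript FPKM values were added up per gene and divided by a factor per library, the median of its ratios to the geometric mean over libraries (0.873 to 1.127 over 15551 genes). A gene was tested if 2 or more libraries reached 1 rescaled FPKM. Values entered as log2(rescaled FPKM + 0.5), which understates the fold change of low genes. limma 3.58.1 (R 4.3.3), with robust moderation along a trend, was fitted with 6 group means over 12 libraries, with Benjamini-Hochberg adjustment over 13793 genes at 0.05. The fit was tested on simulated data drawn without an effect of replicate number. That test therefore does not bear on the choice between this fit and the block. Tables were made with Python 3.11.15 and pandas 2.3.3.

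All groups share replicate numbers, whose meaning the labels do not give. Deviations from the group means correlated between same-numbered libraries in all 15 pairs of groups (0.155 to 0.671, and 0.517 for PE and vehicle). The numbers were therefore taken as pairs for the differences per replicate and for the block. The main fit, which gives the genes said to have risen or fallen, did not use them. The pairing rests on the data alone, since no label states it.

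The members and lists were chosen with earlier results of these data known. Named genes were, first, the 15 largest rises and 15 largest falls by log2 difference and the 10 largest each by level, among called genes with the same sign in both replicates, a transcript of at least 400 nt, at least 5 rescaled FPKM in the higher group and a full symbol. Without those filters, called members of the lists were also named, with up to 3 further members per list or a member that sets its role. Alternatives changed the block, pseudocount, filter, scaling, moderation and libraries. Promoter sequences are from RefSeq on GRCr8. Genome sequence and exon annotation of rn6 were not used here. Some genes that this rule names, and some members counted in the lists, are not reported here by name.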

Additional observations from a re-analysis of the deposited data

Results flagged for a closer look

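The response to PE with JQ1 differed from that without JQ1, by the test of the difference itself, in 10 genes with the block and in none without it. Of these, 3 are described here. Wfdc1, with 1.27 and 1.62 in vehicle and 13.1 and 12.1 with PE, measured 0 and 0.0497 with JQ1 alone and 0.211 and 0 with PE and JQ1, a log2 difference of −2.57 between the responses (limma's adjusted p = 0.16, and 0.035 with the block). Ift43, a part of the transport complex of cilia, measured 56.3 and 72.9 in vehicle and 112 and 146 with PE and 34.8 and 42.3 with JQ1 alone and 34 and 38 with PE and JQ1, a difference of −1.09 (adjusted p = 0.74, and 0.027 with the block). Both genes rose with PE alone. With JQ1 the PE and vehicle values of Ift43 lay close together. Those of Wfdc1 were all below the constant added before the log, so its response to PE could not be measured there. Ptgds, prostaglandin D2 synthase, measured 48.4 and 29 in vehicle and 23.6 and 12.7 with PE and 18.5 and 11.4 with JQ1 alone and 24.4 and 13.4 with PE and JQ1, a difference of 1.39 (adjusted p = 1, and 0.035 with the block). Without JQ1 it was lower with PE in both replicates.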

How the results depend on the processing

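The 398 rises became 188 on the FPKM scale as deposited, 61 when only the 6 libraries without JQ1 were fitted (1825 with the block), 0 when only the 4 compared libraries were fitted and 1627 with the block. The 439 falls became 72 (1801 with the block), 0 and 1687 under the last 3. With only the 4 libraries, 2784 genes still had an unadjusted p under 0.05 by limma, and the block, added after the data were seen for both smaller fits, gave 387 rises and 331 falls there. Leaving out 1 library at a time gave 1 to 78 rises and 2 to 66 falls, and with the block 390, 598, 674 and 1259 rises and 318 to 1419 falls. A group left with 1 library is then assumed to vary like the others. The cause of these shifts was not tested. With JQ1, the 99 calls became 31 on the deposited scale, 34 without a filter and 1664 with the block. The libraries left out were here too the PE and vehicle libraries without JQ1, which the contrast with JQ1 does not compare. Leaving out any 1 of them gave 0 calls, and 945, 947, 1569 and 1570 with the block. Leaving out a library of the contrast with JQ1 itself was not tested. The difference between the responses, with no call, gave 13 without a filter, 4 with plain moderation, 2 with a pseudocount of 1, 10 with the block and 0 to 1 with a library left out (0 to 5 with the block). PE against ET-1, with 1 call, gave 9 without a filter, 0 with at least 1 FPKM in all 12 libraries, with transcripts of at least 400 nt or with the 6 libraries without JQ1, and 0 to 3 with a library left out. No named gene changed sign past the threshold under any alternative run. Of 174 named genes that were called, 173 kept the call with a pseudocount of 1, 156 with 0.1, 165 with plain moderation, 171 with coverage in place of FPKM, 95 on the deposited scale and 0 without PE replicate 2. With the block all 174 kept it. FPKM carries no read depth per gene, so what depth limits was not computed.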

Other observations

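The following groups were put together after the values had been seen, so their counts are descriptions. Genes that shape actin filaments were mostly higher: 8 of 41 rose and 1 fell, beside 2.89% and 3.18% of all tested genes. Msn, moesin, which ties actin to the membrane, rose from 103 and 119.8 to 218 and 266 (log2 difference 1.11 ± 0.19, adjusted p = 0.019), and the severing proteins Dstn (vehicle 199 and 207, PE 353 and 372, log2 difference 0.84 ± 0.10) and Cfl1 (vehicle 232 and 228, PE 339 and 353, log2 difference 0.59 ± 0.09) rose, while Twf2, a twinfilin, fell (vehicle 30.4 and 36, PE 21.1 and 22.3, log2 difference −0.60 ± 0.11). Of 12 tubulin genes 4 rose and none fell, with Tuba1a at 149 and 177 in vehicle and 278 and 293 with PE (log2 difference 0.81 ± 0.14) and Tubb6 at 48.4 and 48.2 in vehicle and 83.5 and 92.9 with PE (log2 difference 0.86 ± 0.12), although near-identical tubulins share reads. The calcium-binding annexins Anxa5 (vehicle 173 and 175, PE 333 and 384, log2 difference 1.03 ± 0.13, adjusted p = 0.0096), Anxa2 (vehicle 269.6 and 224, PE 425 and 391, log2 difference 0.73 ± 0.17) and Anxa7 (vehicle 34.5 and 24, PE 53.5 and 51.4, log2 difference 0.85 ± 0.18) rose, 3 of 9 tested. Of 44 genes for entry into the endoplasmic reticulum, glycosylation and export, 11 rose and none fell, led by Preb, which starts the coat of export vesicles (vehicle 24.3 and 27.6, PE 38.4 and 54.6, log2 difference 0.81 ± 0.17). With the block, 18 actin filament genes rose and 2 fell, and 3 annexins rose and 2 fell. Of the tubulins 9 rose with it and of the export group 21, and none fell in either. Over all tested genes 11.8% rose and 12.2% fell with the block.

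Autophagy and mitophagy genes went the other way: none of 42 rose and 11 fell, among them Pink1, the receptor genes Calcoco1 (vehicle 15.1 and 21.8, PE 8.59 and 7.21, log2 difference −1.15 ± 0.18, adjusted p = 0.014), Ccpg1 (vehicle 48.1 and 54.7, PE 24.6 and 22.7, log2 difference −1.10 ± 0.16) and Nbr1 (vehicle 52.6 and 51.5, PE 40.8 and 37.3, log2 difference −0.41 ± 0.08), and the factor Foxo3 (vehicle 7.08 and 7.73, PE 5.19 and 5.06, log2 difference −0.49 ± 0.08). Of 21 genes of transport in cilia 4 fell, Bbs2 (vehicle 7.36 and 8.73, PE 3.99 and 3.5, log2 difference −1.01 ± 0.12), Ift140 (vehicle 8.94 and 8.29, PE 5.35 and 4.32, log2 difference −0.78 ± 0.15), Ift46 (vehicle 15.2 and 15.2, PE 9.99 and 8.96, log2 difference −0.66 ± 0.07) and Ift81 (vehicle 16.6 and 19.9, PE 12.1 and 11.9, log2 difference −0.57 ± 0.12), and Ift43 rose (vehicle 56.3 and 72.9, PE 112 and 146, log2 difference 0.99 ± 0.20). In nucleotide synthesis, 7 of 31 rose and 2 fell: the kinase Nme1 rose (vehicle 51.8 and 42.5, PE 93.4 and 104, log2 difference 1.06 ± 0.15, adjusted p = 0.013), as did Umps and Dhodh of the pyrimidine branch (vehicle 33.3 and 31.7, PE 45.1 and 50.7, log2 difference 0.55 ± 0.09 and vehicle 3.87 and 3.89, PE 5.62 and 6.19, log2 difference 0.54 ± 0.08), while the muscle adenylosuccinate synthase Adssl1 fell. With the block, 1 autophagy and mitophagy gene rose and 16 fell, and 1 gene of transport in cilia rose and 8 fell. In nucleotide synthesis 13 rose and 2 fell with it. Coa6, a cytochrome oxidase assembly factor chosen after its values were seen, was listed at 0 in both PE libraries and measured 9.86 and 8.72 in vehicle, and it was called with the block only.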
